A study of Mus musculus with 107 samples.

Results

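Interferon gamma is a cytokine made mainly by activated T cells and NK cells, and its receptor pair switches on a broad set of target genes. Among those targets are chemokines that bind CXCR3 on activated T cells and NK cells and draw them into tissue, so that incoming cells can make more of the cytokine. In tumors this loop is known as a mark of T cell-inflamed tissue. The 9 genes examined here are 5 ligands (Ifng, Cxcl9, Cxcl10, Ccl5 and Cxcl16) and 4 receptors (Ifngr1, Ifngr2, Cxcr3 and Cxcr6). They were chosen by name as the interferon gamma and CXCR3 chemokine axis, and all 9 were found among the 50686 genes of the expression table.

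Expression was measured by RNA-seq in subcutaneous tumors of 12 mouse syngeneic models, in which a mouse cancer cell line grows in an immunocompetent host of its own strain. Tumors were treatment-naive at about 100 mm3 (Base, 35 tumors), not treated and collected on day 8 (NT, 36 tumors), or collected on day 8 after daily oral lenvatinib at 10 mg/kg for 7 days (LEN, 36 tumors). Lenvatinib inhibits several receptor tyrosine kinases, including those of the vascular endothelial growth factor family. Each group held 3 tumors, except Base MC38 with 2.

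The BALB/cAnNCrlCrlj strain carried 6 models, namely BNL 1ME A.7R.1 and RAG (in vivo adapted cells), 4T1, CT26.WT, EMT6 and Renca. MC38 and B16-F10 grew in C57BL/6NCrl, LL/2 in C57BL/6JCrl, MBT2 in C3H/HeNCrl, KLN205 in DBA/2NCrl and Hepa 1-6 in C57L/J mice, and all hosts were implanted at 7 weeks of age. Hosts were male for Hepa 1-6 and BNL 1ME A.7R.1 and female for the other models. Each model is 1 cell line in 1 strain, so that model, strain and tumor type cannot be told apart. A tumor was taken once, so that the groups of a model hold different animals.

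Values are TPM, a transcript abundance that accounts for gene length and has the same total in every tumor, and differences are given on the scale of log2(TPM + 1). These are bulk tumors, in which fewer cells of a type and less RNA per cell cannot be told apart. TPM keeps no sequencing depth, so the counting precision of low values such as those of Ifng is unknown. Protein-coding genes took 27.5% to 66.6% of the TPM of a tumor, with the lowest share in 1 LEN tumor of 4T1. Lineage markers stood where the models' labels put them for melanocytes in B16-F10, hepatocytes in Hepa 1-6 and keratinocytes in KLN205, but summed hepatocyte markers were at about 1 TPM in BNL 1ME A.7R.1, which is labelled a liver line. The 3 LEN tumors of BNL 1ME A.7R.1 stood apart. Their 6 skeletal muscle markers summed to 1575 to 2286 TPM, against at most 648 TPM in any other tumor, and their 5 epithelial markers averaged 1175 TPM against 31.9 TPM in NT.

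Cxcl9 and Cxcl10 lie next to each other on chromosome 5 on the minus strand, at 92321347 to 92328079 and 92346638 to 92348889 of GRCm38, with 18558 bases between them. Their promoters are shown because these chemokines carried large changes under LEN and are textbook targets of interferon gamma. The RefSeq windows of GRCm38.p6 run from 250 bases before to 50 bases after the transcription start and are written 5′ to 3′ on the minus strand, with matches to the searched motifs in capitals.
Cxcl9, chr5:92328030-92328329: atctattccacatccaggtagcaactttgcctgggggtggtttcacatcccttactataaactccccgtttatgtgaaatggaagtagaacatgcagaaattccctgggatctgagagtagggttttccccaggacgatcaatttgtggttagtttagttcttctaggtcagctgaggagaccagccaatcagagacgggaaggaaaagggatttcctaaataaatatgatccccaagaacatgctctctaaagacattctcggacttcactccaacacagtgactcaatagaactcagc
Cxcl10, chr5:92348840-92349139: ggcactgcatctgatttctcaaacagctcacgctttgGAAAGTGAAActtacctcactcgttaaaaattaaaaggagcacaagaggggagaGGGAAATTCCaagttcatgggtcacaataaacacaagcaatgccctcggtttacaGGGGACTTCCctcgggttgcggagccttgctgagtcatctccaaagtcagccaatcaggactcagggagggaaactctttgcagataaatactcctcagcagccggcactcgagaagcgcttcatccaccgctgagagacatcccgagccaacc
The Cxcl10 window holds 1 match to the core of the interferon-stimulated response element (GAAA, any 2 bases, GAAA), starting at base -213 from the start site, and 2 matches to an NF-kappaB-type site (GGG, any 3 bases, TTCC), starting at bases -159 and -104. The Cxcl9 window holds no match to either or to the gamma-activated site (TTC, any 3 bases, GAA), which says only that these letters are not in this window. Searched on both strands, the response element core was found in 3.44%, the NF-kappaB-type site in 5.56% and the gamma-activated site in 8.3% of 32851 promoter windows of this length. A match is a description of the letters and not a binding site. Of the 9 members, 7 had a window, and the other two are Ccl5 and Cxcl16. The gamma-activated site was matched once in the Ifng window, starting at base -249, and the NF-kappaB-type site once in the Ifngr2 window on the opposite strand. The windows of Ifngr1, Cxcr3 and Cxcr6 held none of the 3 motifs.

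To describe the axis before treatment, levels were compared between the 35 Base tumors. All 9 members differed between models by the F test of limma over all genes (adjusted p from 3.42e-15 for Ifngr1 to 5.03e-07 for Cxcl9). This was so for 86.1% of the 25664 genes tested, so that a difference between models is the rule in this series. Hepa 1-6 had the highest mean for 8 of the 9 members, and MC38 for Cxcl10. KLN205 had the lowest means of Cxcl9, Cxcl10 and Ccl5, B16-F10 those of Ifngr1, Cxcr6 and Cxcl16, LL/2 those of Ifng and Cxcr3, and 4T1 that of Ifngr2.

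Ifng, the cytokine itself, was low in all models. Its Base values were 5.8, 6.26 and 12.56 TPM in Hepa 1-6 and 2.25 and 2.34 TPM in MC38. The other 10 models had Base tumors between 0 and 2.57 TPM, and Ifng was listed at 0 in 5 of the 35 Base tumors. Only the gap between Hepa 1-6 and MC38 separated neighbours in the order of means, and the ranges of the other 10 neighbouring pairs overlapped. How often neighbouring models are apart over all genes was not computed, for this or any other member. In KLN205 Ifng was listed at 0 in all 6 tumors of day 8 and in 2 of the 3 Base tumors.

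Cxcl9, a CXCR3 ligand that is induced mostly by interferon gamma, spanned the widest range. Its Base mean was 315 ± 66.8 TPM (SD, n = 3) in Hepa 1-6 and 0.743 ± 0.875 TPM (SD, n = 3) in KLN205, a ratio of 424. Between them stood RAG with 106 TPM, MC38 with 67.9 TPM, CT26.WT with 60.3 TPM, MBT2 with 44.3 TPM and B16-F10 with 17.8 TPM. 4T1, EMT6, LL/2, Renca and BNL 1ME A.7R.1 had means from 16.6 down to 4.92 TPM. Of the 11 neighbouring pairs 3 had ranges apart, namely Hepa 1-6 and RAG, MBT2 and B16-F10, and BNL 1ME A.7R.1 and KLN205. In 4T1 1 Base tumor decided the mean, with 47.93 TPM against 0.63 and 1.19 TPM in the others.

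Cxcl10, a CXCR3 ligand that type I interferons and NF-kappaB also induce, had another leader. Its Base values were 515.76 and 939.63 TPM in MC38, above 190.85, 229.2 and 302.63 TPM in Hepa 1-6. RAG and MBT2 followed with overlapping ranges and means of 90.5 and 89.6 TPM, and KLN205 was last with 1.85 to 2.2 TPM. Within single tumors of MC38 the Cxcl10 level was 7.97 to 27.3 times that of Cxcl9, with the lowest ratio in a Base tumor and the highest in a LEN tumor. In Hepa 1-6 the same ratio was 0.509 to 1.16, so the pair of ligands was not held in 1 proportion across models.

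Ccl5, a chemokine of activated T cells, NK cells and macrophages, had overlapping Base ranges in Hepa 1-6 (116 to 284 TPM) and MC38 (106 and 166.3 TPM). Both lay above the third model, MBT2, with 29.9 to 43.1 TPM. Cxcl16, a membrane-bound chemokine that binds CXCR6 and acts as a scavenger receptor on macrophages, followed a different order. KLN205, lowest for the other chemokines, was second for Cxcl16 at 74.4 ± 10.3 TPM (SD, n = 3), and B16-F10 was last at 5.54 ± 0.809 TPM (SD, n = 3).

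The 2 chains of the interferon gamma receptor were present in every tumor. Ifngr1, the ligand-binding chain, ranged from 17.3 to 107.6 TPM in Base tumors and Ifngr2, the signaling chain, from 12.3 to 34.2 TPM. Ifngr1 was lowest in B16-F10, with 17.3, 17.87 and 19 TPM, and its 3 tumors lay below those of the next model, 4T1, though 1 KLN205 tumor (18.88 TPM) lay among them. Cxcr3, the receptor for Cxcl9 and Cxcl10, was at 0.3 to 6.24 TPM, and the ranges of Hepa 1-6, B16-F10 and 4T1, the models with the highest means, overlapped between neighbours. Cxcr6, a receptor of resident and effector T cells, was at 13.5 to 20.9 TPM in Hepa 1-6 and at most 4.2 TPM in the Base tumors of the other 11 models. B16-F10 thus combined the second-highest Base mean of Cxcr3 (3.66 TPM) with the lowest of Cxcr6 (1.3 TPM).

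**Figure D1:**
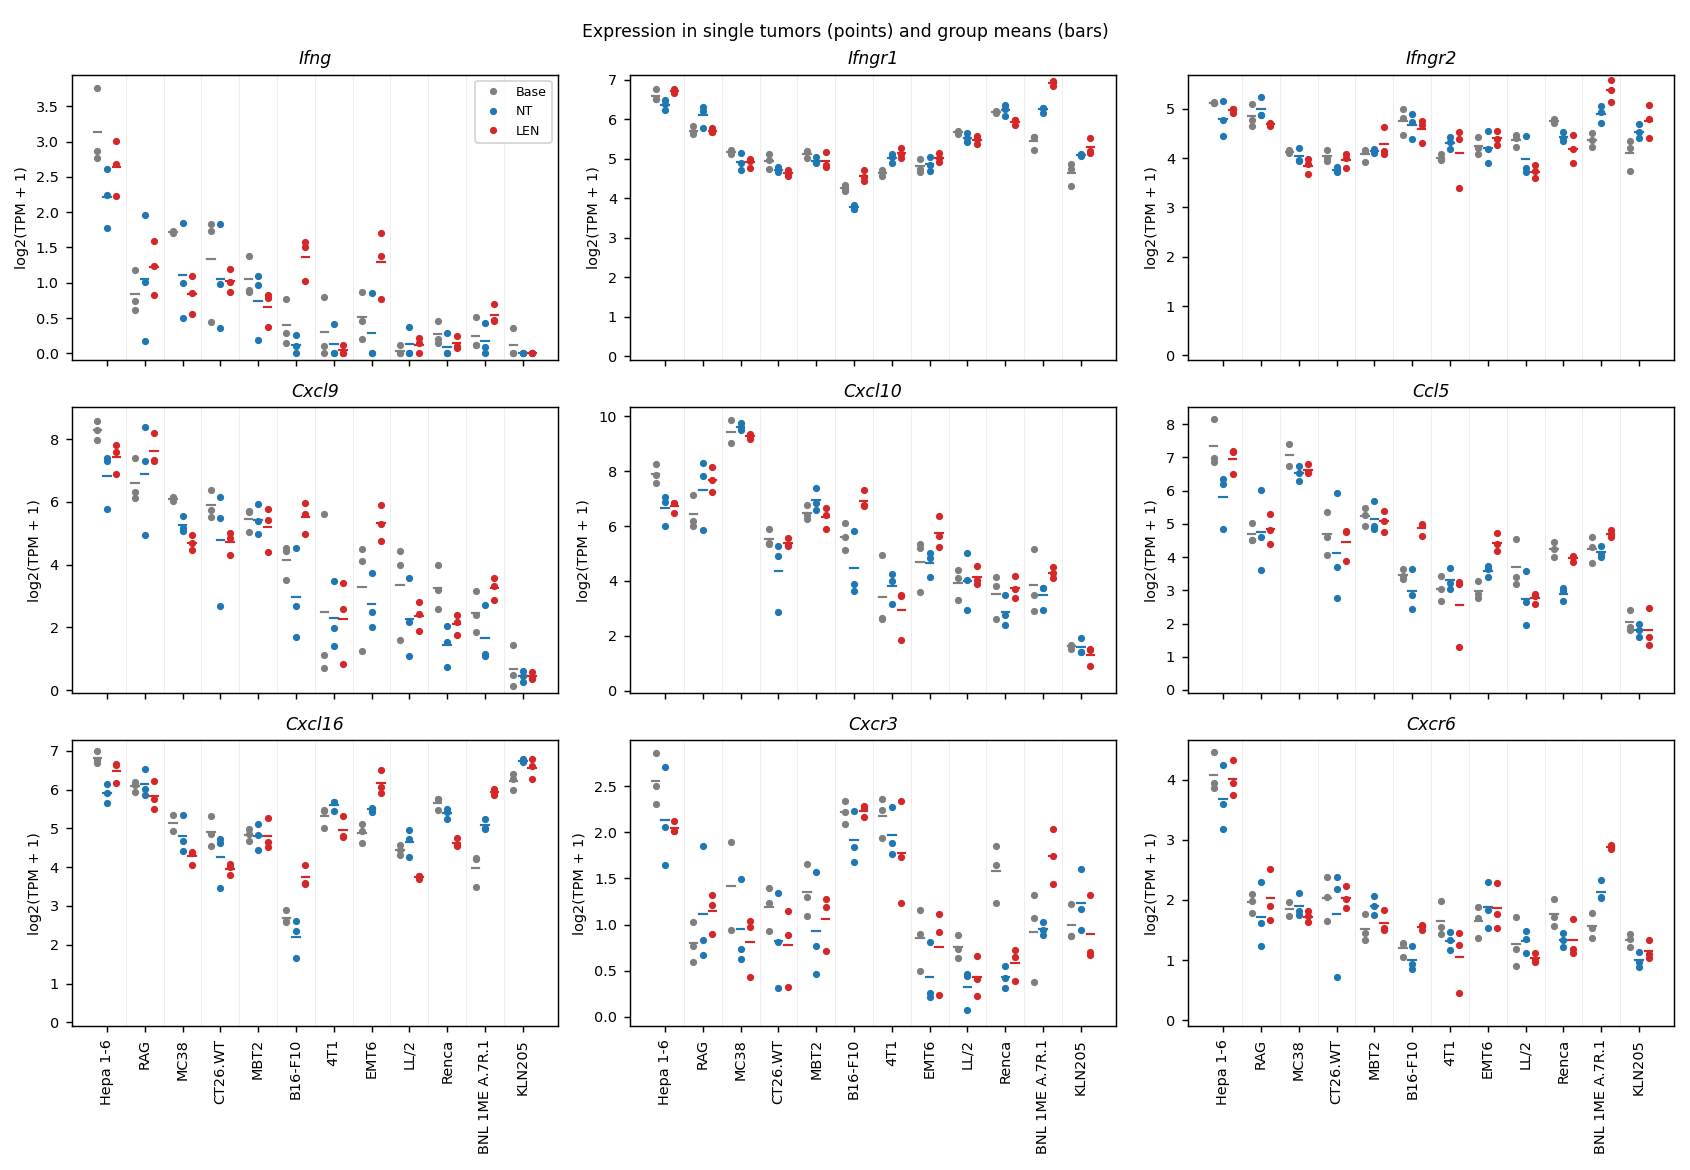
Expression of the 9 genes as log2(TPM + 1) on the vertical axes, by model on the horizontal axes (ordered by the Base mean of Cxcl9). Points are single tumors of the Base, NT and LEN groups and bars are group means. MC38 leads for Cxcl10 and KLN205 is lowest for Cxcl9, Cxcl10 and Ccl5 but high for Cxcl16.

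The members did not vary together as 1 block. Over the 36 group means of log2(TPM + 1), the 6 pairs among Ifng, Cxcl9, Cxcl10 and Ccl5 had Pearson's r from 0.70 to 0.88. Cxcr6 followed Ifng at r = 0.84, whereas Cxcr3 followed Ifng at only 0.45 and Cxcl10 at 0.18. Cxcl16 was unrelated to Cxcl10 over groups (r = -0.082) and reached 0.45 with Cxcr6, its receptor. The points share models, and 3 groups of each model enter, so that these values describe mainly the order of the models.

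Deviations of the tumors from their own group means gave another picture. Here Cxcl9 and Cxcl10 were related at r = 0.87, and Cxcl16 at 0.69 with Ccl5, 0.56 with Cxcl9 and 0.53 with Cxcl10. All 36 pairs of members were positive within groups, from 0.16 to 0.87. Tumors of a group that had more of 1 chemokine therefore tended to have more of the others. The share of protein-coding RNA also differed between tumors of a group, and its part in these values was not tested.

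**Figure D2:**
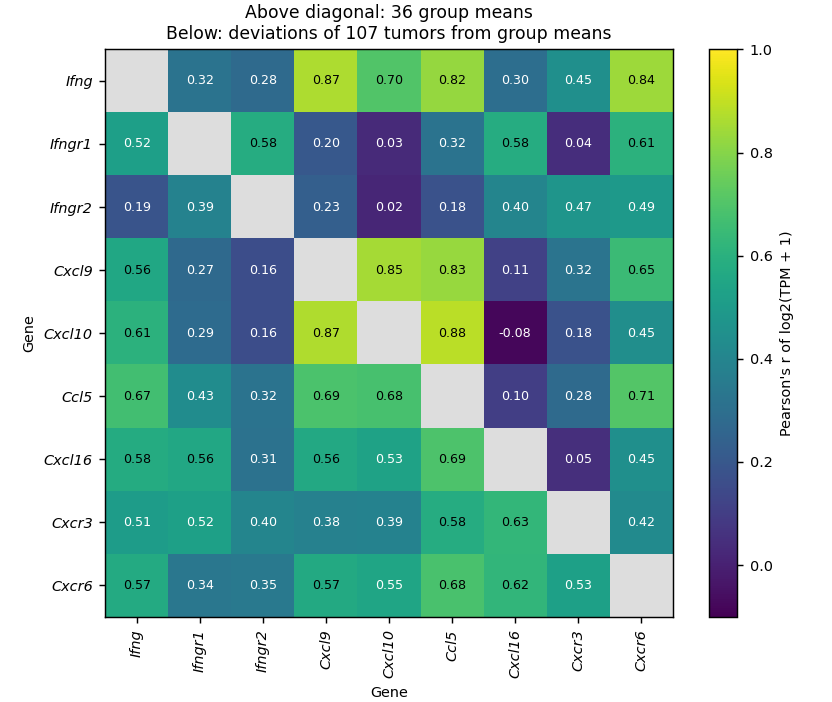
Pearson's r of log2(TPM + 1) between the 9 genes, coded by color and printed in each cell. Cells above the diagonal use the 36 group means and cells below it the deviations of all tumors from their group means. Cxcl16 and Cxcl10 are at -0.08 above the diagonal and 0.53 below it.

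Outside the members, the genes with the most similar pattern over the 36 group means were sought among 13268 protein-coding genes. For Cxcl9 they were Iigp1 (r = 0.97), Gm4951 (0.93) and Igtp (0.93), of which Iigp1 and Igtp encode interferon-inducible GTPases. For Cxcl10 they were the GTPase genes Irgm2 (0.90) and Igtp (0.89) and Bst2 (0.89), which encodes tetherin. Ifng was most similar to Ubd (0.97), a ubiquitin-like modifier, and to Pdcd1 (0.94) and Cd8a (0.93), genes of activated and cytotoxic T cells. Ccl5 was most similar to Nkg7 (0.93), Klrd1 (0.91) and Slamf7 (0.91), which are genes of cytotoxic lymphocytes.

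The receptors and Cxcl16 kept other company. Cxcr6 was most similar to Tox (0.93) and Lat (0.93), genes of T cells, and to Ipcef1 (0.92). Cxcr3 had Zfp422 (0.85), Gca (0.84) and Tnik (0.81), and Cxcl16 had Nuak2 (0.89), Rhbdf2 (0.89) and Lasp1 (0.88), none of them a usual lymphocyte marker. For Ifngr1 the list was Mbd1 (0.85), Cebpa (0.84) and Shc2 (0.83), and for Ifngr2 it was Slc25a23 (0.83), Wdr7 (0.80) and Apoe (0.80). Cd3e, a subunit of the T cell receptor complex, had r = 0.92 with Ifng and 0.89 with Cxcr6, but 0.46 with Cxcr3 and 0.34 with Cxcl16. Adgre1, which encodes the macrophage marker F4/80, had r = 0.45 with Cxcl16 and -0.062 with Cxcr3 on the same measure. Within groups Cxcl16 had r = 0.76 with Adgre1, 0.68 with Cd8a and 0.62 with Cd3e. Cxcr3 had 0.68 with Adgre1 and 0.52 with Cd3e there.

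To find what changed in tumors that grew without drug, NT tumors of day 8 were compared with Base tumors. Averaged over the 12 models, 3 of the 9 members fell and none rose. In the same test 11.4% of 25687 genes fell and 11.7% rose, or 2917 and 3002 genes (23% in all). After rescaling over protein-coding genes 5041 genes fell and 1275 rose, and the same 3 members fell. Cxcl9 fell by 0.75 on the log2 scale (SE 0.26, adjusted p = 0.0303), with 11 of 12 models lower. Ccl5 fell by 0.41 (SE 0.14, adjusted p = 0.0277) and Cxcr3 by 0.30 (SE 0.084, adjusted p = 0.00701), each with 9 of 12 models lower. The change of Ifng was -0.24 (SE 0.10, adjusted p = 0.0781), with 10 of 12 models lower, which did not pass the threshold.

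Hepa 1-6 and Renca had the most members apart with NT lower, 6 and 5 of 9, and 23.5% and 22.7% of all genes were apart in that direction in these models. The change of Cxcl9, Ccl5 and Cxcr3 was not shown to differ between models (F test, adjusted p = 0.937, 0.154 and 0.139). In Hepa 1-6 Cxcl9 was at 250.59, 310.8 and 384.07 TPM in Base and at 54.34, 157.36 and 166.44 TPM in NT. In Renca Ccl5 was at 15.02, 18.05 and 20.92 TPM in Base and at 5.42, 6.83 and 7.32 TPM in NT, and Cxcr3 at 1.36 to 2.61 TPM and 0.24 to 0.47 TPM. None of these ranges overlapped. Without Renca no member was called by limma in this comparison (0 of 9, with 4 at an unadjusted p under 0.05), and without Hepa 1-6 the count was 1. In the same fits 2335 of 25605 genes fell and 3502 rose without Renca, and 2261 of 25348 fell and 3786 rose without Hepa 1-6, so that falls over all genes were fewer too. Of the 6 skeletal muscle markers all fell as well (median log2 change -1.21), as did 6 of 10 T cell markers (median -0.27), 6 of 8 NK cell markers (median -0.22), 7 of 8 dendritic cell markers (median -0.21), all 5 adipocyte markers (median -0.82), 3 of 6 fibroblast markers (median -0.33), 3 of 9 macrophage markers (median -0.054) and 3 of 9 endothelial markers (median -0.14), against a median of -0.0028 over all genes. Their part in the fall of the chemokines was not tested.

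The F test for a difference between models in this change was passed by 3 of 9 members, a smaller share than the 50.2% of all genes that passed it. They were Ifngr1 (adjusted p = 5.14e-08), Cxcl16 (5.61e-05) and Ifngr2 (0.00247). Cxcl16 went from 10.23, 17.43 and 17.84 TPM in Base to 30.84, 31.09 and 37.17 TPM in NT in BNL 1ME A.7R.1, and from 102.18, 108.12 and 127.16 TPM to 49.46, 59.47 and 69.21 TPM in Hepa 1-6. Ifngr1 went from 36.5 to 46 TPM in Base to 70.7 to 77.1 TPM in NT in BNL 1ME A.7R.1, and from 17.3 to 19 TPM to 12.3 to 13.3 TPM in B16-F10. The groups did not overlap in any of these 4 cases, with opposite directions in the models of each pair. Of all genes 28.5% were apart with NT higher in BNL 1ME A.7R.1, and 12.1% with NT lower in B16-F10. The protein-coding share of TPM moved the same way as Cxcl16, from 45.3% to 49% in Base to 54.3% to 57.4% in NT of BNL 1ME A.7R.1 and from 56.1% to 59.1% to 50.1% to 52.3% in Hepa 1-6, and its part in these changes was not tested. Ifngr2 was at 17.6 to 21.8 TPM in Base and 25.1 to 32.2 TPM in NT of BNL 1ME A.7R.1, and at 25 to 26.6 TPM and 19.3 to 22 TPM in Renca.

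LEN was then compared with NT on day 8, the question being which genes of the axis the drug moves. Averaged over the 12 models, 4 of the 9 members rose and none fell, where 10.7% of 25636 genes rose and 7.56% fell, 18.3% in all. Cxcl9 rose by 0.66 on the log2 scale (SE 0.20, adjusted p = 0.0143), with 8 of 12 models higher. Ccl5 rose by 0.44 (SE 0.14, adjusted p = 0.0189), with 9 models higher, and Cxcl10 by 0.40 (SE 0.15, adjusted p = 0.0492), with 8 models higher. Ifngr1 rose by 0.12 (SE 0.031, adjusted p = 0.00374), but only 6 of 12 models were higher and 6 were lower.

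The other 5 members were not called. Ifng had a mean change of 0.23 (SE 0.088, adjusted p = 0.0603), and at a pseudocount of 0.1 in place of 1 it passed the threshold with 0.71 (adjusted p = 0.0155). Cxcr6 and Cxcr3 changed by 0.11 and 0.087 (adjusted p = 0.363 and 0.543), with 95% intervals from -0.044 to 0.27 and from -0.083 to 0.26. Ifngr2 was at 0.011 (interval -0.10 to 0.13) and Cxcl16 at -0.00071 (interval -0.14 to 0.14).

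These means rested on few models. Without B16-F10 limma called none of the 9 members (0, with 2 at an unadjusted p under 0.05), without BNL 1ME A.7R.1 or without EMT6 it called 1, and without Renca 2. With the other models left out in turn it called 3 to 5. Of all genes 2187 were higher and 1835 lower without B16-F10 (of 25459), 1609 and 1906 without BNL 1ME A.7R.1 (of 25553), 2511 and 1818 without EMT6 (of 25691) and 2531 and 1474 without Renca (of 25537), against 2747 and 1938 of 25636 with all models, so that the rises over all genes were fewer in these fits too. The call of Cxcl10 was also lost in 46 of the 72 fits that left out 1 tumor, at a pseudocount of 0.1 and with no filter on low values. The comparisons of NT with Base and of LEN with NT share the NT tumors, so that a low NT value enters both with opposite sign.

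**Figure D3:**
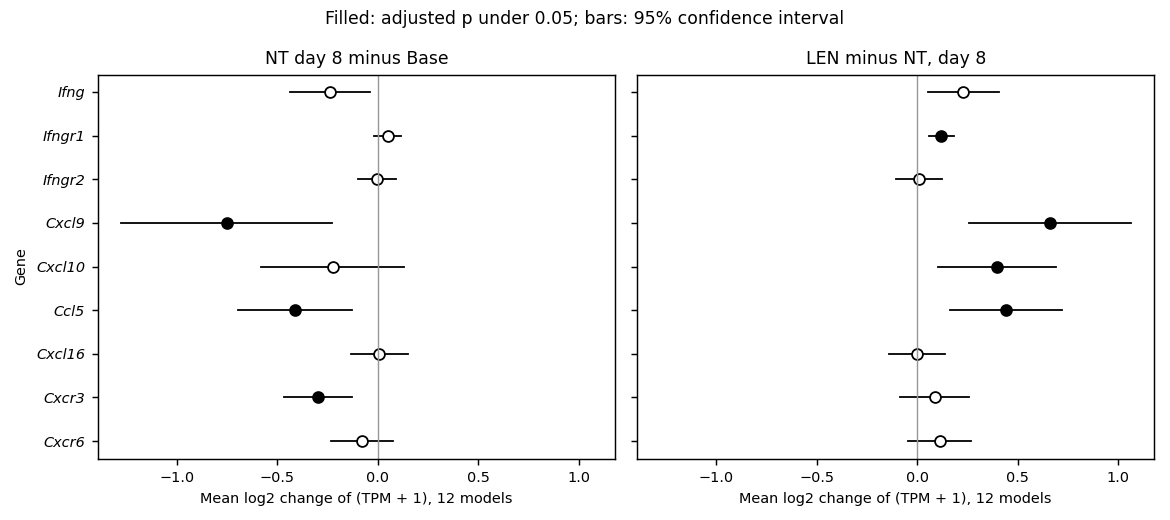
Mean log2 change of (TPM + 1) over 12 models for the 9 genes, for NT of day 8 minus Base on the left and LEN minus NT on the right. Bars are 95% confidence intervals, and filled points have an adjusted p under 0.05. Cxcl9 is at -0.75 on the left and 0.66 on the right, and both comparisons use the same NT tumors.

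The effect of LEN differed between models for Ifngr1 (adjusted p = 7.24e-08), Cxcl16 (1.6e-07) and Cxcl10 (0.00917) by the F test, 3 of 9 members against 28.7% of all genes. For Ifng, Cxcl9 and Ccl5 the adjusted p was 0.0681, 0.0741 and 0.0996. With each model fitted alone, 15 of 108 pairs of member and model were called, 14 higher and 1 lower. Over all genes 2.57% of such pairs were called higher and 0.874% lower. The 15 pairs came from 3 models, with 8 in BNL 1ME A.7R.1, 5 in B16-F10 and 2 in Renca.

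No pair was called by limma in the other 9 models, where 15 of 78 tested pairs had an unadjusted p under 0.05, 8 of them higher. Over all genes 11.4% of the pairs in these models had such a p. After adjustment few genes were called in them at all, from 0.00418% of all genes in Hepa 1-6 to 0.363% in EMT6. When the spread was shared over all 72 tumors, 14 pairs were called. Of these 4 were gained, namely Cxcl9 in B16-F10 and, in the 9 models, Cxcl9 in EMT6, Ifngr1 in Hepa 1-6 and Cxcl16 in LL/2. Of the 15 calls 5 were lost in that fit, with an adjusted p of 0.0822, 0.101, 0.277 and 0.497 for Ifngr2, Cxcl9, Cxcl10 and Ccl5 in BNL 1ME A.7R.1 and 0.218 for Ccl5 in Renca. LEN and NT tumors did not overlap in 35 of the 108 pairs, 26 with LEN higher (24.1%) and 9 with LEN lower (8.33%), where 11.7% and 9.85% of the pairs of all genes did so. Over pairs, 3.44% were called in either direction. Ifng was below the minimum of 0.1 TPM in 4T1, Renca, LL/2 and KLN205 and was not tested there.

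B16-F10, a melanoma, had the largest rises of Ifng, Cxcl10, Ccl5, Cxcl16 and Ifngr1. Of the 9 members 5 were called higher, as were 6.48% of all genes, and 7 were apart with LEN higher, as were 19.3%. The number called depended on single tumors. It was 1 without NT replicate 2, 2 without LEN replicate 2 or 5, 3 without NT replicate 5 or LEN replicate 3, and 6 without NT replicate 4. Of these 6 fits the call was lost in 5 for Cxcl10, 4 for Cxcl16, 3 for Ccl5 and 2 for Ifng, and in none for Ifngr1. Ifng was at 0, 0.07 and 0.2 TPM in NT and at 1.03, 1.85 and 1.97 TPM in LEN, a rise of 1.25 on the log2 scale (SE 0.18, adjusted p = 0.0123). Cxcl10 was at 11.51, 13.84 and 55.89 TPM in NT and at 104.65, 106.93 and 157.12 TPM in LEN, a rise of 2.47 (SE 0.56, adjusted p = 0.0457). Every LEN tumor lay above every NT tumor for both genes, although 1 NT tumor had about as much Cxcl10 as the Base tumors.

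Ccl5 in the same model was at 4.45, 6.23 and 11.47 TPM in NT and at 23.75, 30.51 and 31.18 TPM in LEN, a rise of 1.89 (SE 0.30, adjusted p = 0.0152). Cxcl16 was at 2.13, 4.11 and 5.09 TPM and at 10.95, 11.09 and 15.68 TPM, a rise of 1.54 (SE 0.27, adjusted p = 0.0213). Ifngr1 was at 12.32, 12.33 and 13.31 TPM and at 20.77, 22.2 and 25.18 TPM, a rise of 0.79 (SE 0.091, adjusted p = 0.00647). None of the 3 overlapped, and in all 3 the LEN tumors also stood above the Base tumors.

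Cxcl9 in B16-F10 was at 2.26, 5.47 and 22.24 TPM in NT and at 30.33, 48.21 and 60.95 TPM in LEN. Its difference of 2.54 (SE 0.68) had no overlap but an adjusted p of 0.0775 in this model alone (0.0107 with the spread shared over 72 tumors), and 1 NT tumor stood well above the other NT tumors. Cxcr6 was at 0.8 to 1.35 TPM in NT and 1.82 to 2.01 TPM in LEN (0.54, adjusted p = 0.0809), and Cxcr3 and Ifngr2 overlapped. Markers of several immune cell types rose with the ligands, namely 9 of 10 T cell, 6 of 8 NK cell and 8 of 9 macrophage markers, and so did all 6 fibroblast markers (median 1.71) and all 6 skeletal muscle markers (median 3.39). Summed T cell markers went from 4.56 to 10.9 TPM in NT to 28.4 to 36.5 TPM in LEN, and summed macrophage markers from 74.7 to 111 TPM to 247 to 360 TPM. Summed skeletal muscle markers went from 2.45 to 24 TPM to 142 to 212 TPM. Protein-coding genes took 54.6% to 58.4% of the TPM in NT and 59.1% to 60.6% in LEN, and the part of these cells and of this share in the changes was not tested.

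BNL 1ME A.7R.1 had 8 of the 9 members called, all higher, in a model where 19.9% of all genes were called higher and the median of all genes was 0.15. The number was 4 or 5 when any 1 of its 6 tumors was left out, with Ifngr2, Cxcl9, Cxcl10 and Cxcr3 each lost in 5 of these 6 fits. Cxcl9 was at 1.12, 1.24 and 5.57 TPM in NT and at 6.34, 8.91 and 10.83 TPM in LEN, a rise of 1.60 (SE 0.45, adjusted p = 0.0435). Cxcr3 was at 0.85, 0.92 and 1.04 TPM and at 1.71, 2.35 and 3.09 TPM, a rise of 0.79 (SE 0.18, adjusted p = 0.0232). Cxcr6 was at 3.08, 3.13 and 4.06 TPM and at 6.22, 6.44 and 6.5 TPM, a rise of 0.75 (SE 0.13, adjusted p = 0.00809). A difference between models was not shown for either receptor (F test, adjusted p = 0.562 for Cxcr3 and 0.238 for Cxcr6), and Cxcr6 was also apart with LEN higher in B16-F10 (0.54, adjusted p = 0.0809).

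Ifngr1 in BNL 1ME A.7R.1 rose from 70.68, 77.03 and 77.14 TPM to 113.37, 120.65 and 123.99 TPM (0.66, SE 0.060, adjusted p = 0.000594), the highest values of that gene in the series. Cxcl16 rose by 0.86, Cxcl10 by 0.83, Ccl5 by 0.55 and Ifngr2 by 0.48 (adjusted p = 0.000971, 0.0434, 0.0118 and 0.0448). Ifng was at 0, 0.06 and 0.35 TPM in NT and at 0.38, 0.39 and 0.62 TPM in LEN, which was not called (0.37, adjusted p = 0.135). Thus LEN tumors lay above NT tumors for all 9 members, as they did for 33.5% of all genes in this model.

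The calls of Cxcl9, Cxcl10 and Ifngr2 in BNL 1ME A.7R.1 were lost after rescaling over protein-coding genes, which took 54.3% to 57.4% of NT and 60.2% to 61.9% of LEN tumors. They were also lost after rescaling by the upper quartile, with no filter on low values, with no trend and in the shared fit, in all in 6 of 8 other settings each. T cell markers were higher for 6 of 10 genes (median 0.92) in this model, NK cell markers for 3 of 7, dendritic cell markers for 4 of 8 with 1 lower, and adipocyte markers for 3 of 5 (median 2.63). Endothelial markers were lower for 7 of 9 genes (median -1.09), fibroblast markers for 4 of 6 (median -0.36) and macrophage markers for 1 of 9. The LEN tumors of this model are those with the high muscle and epithelial markers described above, and the part of these cells and tissues in the rise was not tested.

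Renca had 2 calls in opposite directions. Ccl5 was at 5.42, 6.83 and 7.32 TPM in NT and at 13.47, 15.04 and 15.41 TPM in LEN, a rise of 1.06 (SE 0.12, adjusted p = 0.00429, or 0.218 with the spread shared over 72 tumors). Base tumors were at 15 to 20.9 TPM. Cxcl16 was at 37.04, 41.68 and 44.49 TPM in NT and at 22.41, 22.78 and 25.83 TPM in LEN, and fell by 0.77 (SE 0.096, adjusted p = 0.00557). Neither overlapped. Macrophage markers fell for 8 of 9 genes in this model, while 8.5% of all genes were called. Their sum went from 809 to 913 TPM in NT to 377 to 415 TPM in LEN. T cell markers were higher for 3 of 10 genes and lower for 1 (median 0.56), and endothelial markers were lower for 5 of 9 (median -1.22). The part of these markers in the changes of Ccl5 and Cxcl16 was not tested.

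The same direction of Cxcl16 was seen in LL/2, where it was at 18.32, 25.61 and 30.27 TPM in NT and at 11.85, 12.55 and 12.78 TPM in LEN. The difference of -0.91 (SE 0.17) had an adjusted p of 0.143 in LL/2 alone and 0.0473 with the spread shared over 72 tumors. Cxcl16 also did not overlap in 4T1 (-0.64, adjusted p = 0.732) and MC38 (-0.54, adjusted p = 0.541), with LEN lower in both. With LEN higher it did not overlap in EMT6 (0.67, adjusted p = 0.126) and Hepa 1-6 (0.59, adjusted p = 0.164), besides B16-F10 and BNL 1ME A.7R.1. Of 12 models Cxcl16 was thus apart in 8, 4 in each direction, the most of any member. Over all genes and models 11.7% of pairs were apart with LEN higher and 9.85% with LEN lower. With LEN higher the share of all genes was 33.5% in BNL 1ME A.7R.1, 20.4% in Hepa 1-6, 19.3% in B16-F10 and 12.9% in EMT6. With LEN lower it was 19.8% in LL/2, 17.5% in Renca, 9.63% in 4T1 and 6.2% in MC38. Summed macrophage markers went with Cxcl16 in LL/2, from 490 to 642 TPM in NT to 256 to 260 TPM in LEN. The median change of macrophage markers was -0.90 in LL/2 (3 of 9 called lower) and -0.69 in MBT2. In MBT2 they summed to 1122 to 1562 TPM in NT and 692 to 1208 TPM in LEN, which overlap. The change of Cxcl16 there was 0.021 and its values overlapped. In every other model the macrophage median and the change of Cxcl16 had the same sign. Both were above 0 in B16-F10, Hepa 1-6, EMT6 and BNL 1ME A.7R.1 (macrophage median 0.11 in the last) and below 0 in the rest. Protein-coding genes took 50% to 51.3% of the TPM in NT and 47.3% to 48.7% in LEN of LL/2. The part of these markers and of this share in the result was not tested.

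EMT6 had the largest change of Cxcl9. It was at 3.04, 4.6 and 12.4 TPM in NT and at 25.99, 38.66 and 58.15 TPM in LEN, a difference of 2.57 (SE 0.46) with an adjusted p of 0.0779 in this model alone and 0.0384 with the spread shared over 72 tumors. Cxcl10 was at 16.77, 27.66 and 31.35 TPM and at 36.77, 48.89 and 82.23 TPM (1.08, adjusted p = 0.214), and Ccl5 at 9.45, 11.38 and 12.17 TPM and at 17.28, 20.21 and 25.22 TPM (0.86, adjusted p = 0.0896). With Cxcl16 4 members were apart with LEN higher, as were 12.9% of all genes, and 0.363% of all genes were called in EMT6. Protein-coding genes took 57.2% to 61% of the TPM in NT and 62.8% to 66.6% in LEN, and the part of this share was not tested. Ifng was at 0, 0 and 0.81 TPM in NT and at 0.71, 1.61 and 2.26 TPM in LEN, and Cxcr3 and Cxcr6 overlapped.

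In Hepa 1-6, the model with the most Ifng, Ccl5 was at 27.75, 72.73 and 79.99 TPM in NT and at 89.5, 142.22 and 146.5 TPM in LEN (1.16, adjusted p = 0.21), and Ifngr1 at 74.3 to 88 TPM and 100.57 to 107.21 TPM (0.35, adjusted p = 0.130). Both were apart, as was Cxcl16, against 20.4% of all genes apart with LEN higher in this model. Ifng, Cxcl9 and Cxcl10 overlapped. In CT26.WT Cxcl10 was at 6.38, 28.7 and 37.3 TPM in NT and at 37.61, 38.61 and 46.49 TPM in LEN, apart by a small margin (1.04, adjusted p = 0.699). RAG had the most Cxcl9 on day 8, but its NT tumors were far from each other at 29.87, 156.77 and 335.89 TPM, and no LEN difference could be seen against that spread (0.74, SE 0.80).

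Other models had chemokines that were lower under LEN or overlapped. In MC38 Cxcl9 was at 32.93, 35.32 and 46.31 TPM in NT and at 21.08, 24.66 and 29.63 TPM in LEN (-0.58, adjusted p = 0.395), and Cxcl10 at 717.12, 779.02 and 870.48 TPM and at 574.48, 626.52 and 650.12 TPM (-0.35, adjusted p = 0.377). Both were apart with LEN lower, as was Cxcl16, against 6.2% of all genes in this model. In MBT2 no member was apart, where 7.42% of all genes were apart with LEN higher and 9.36% with LEN lower. In KLN205 Cxcl9 stayed between 0.19 and 0.54 TPM and Cxcl10 between 0.85 and 2.77 TPM in all 6 tumors of day 8, while Ifngr1 was apart with LEN higher, from 32.47, 33.23 and 33.5 TPM to 34.15, 35.65 and 45.35 TPM (0.20, adjusted p = 0.591). In 4T1 the LEN tumor with the low protein-coding share was also the lowest for Cxcl9 (0.79 TPM), Cxcl10 (2.61 TPM), Ccl5 (1.43 TPM) and Cxcr6 (0.37 TPM) among the 3.

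**Figure D4:**
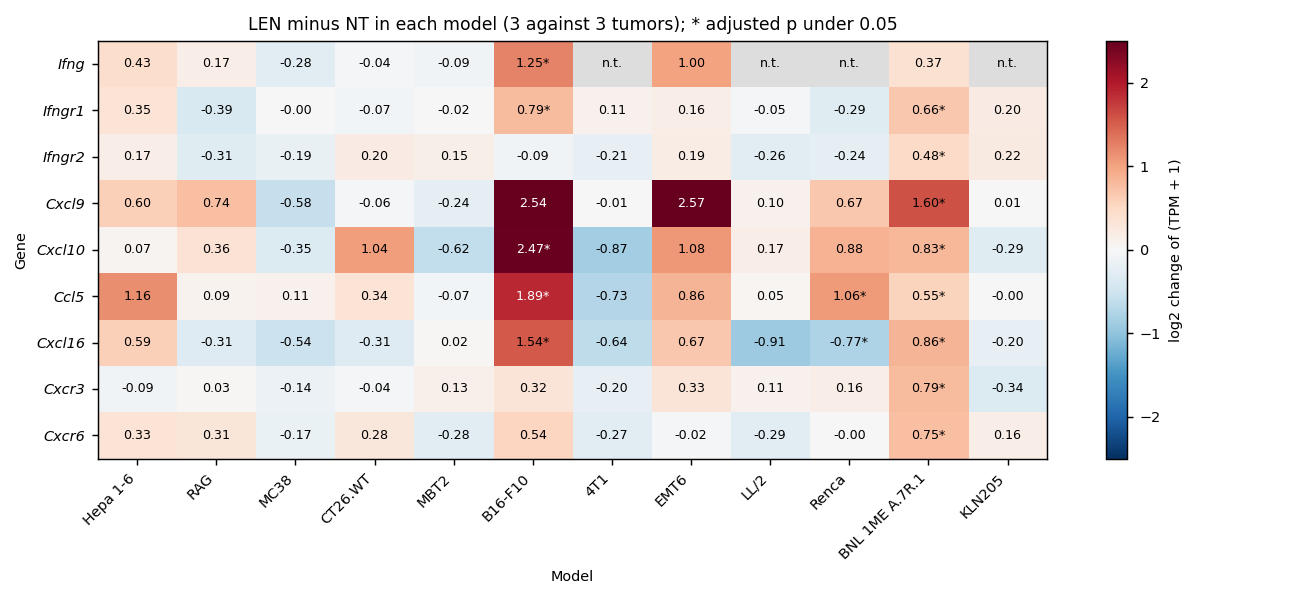
Log2 change of (TPM + 1), LEN minus NT, for each gene (rows) in each model (columns), coded by color and printed in each cell. An asterisk marks an adjusted p under 0.05 in the fit of that model alone, and n.t. marks genes not tested. The 15 asterisks stand in BNL 1ME A.7R.1, B16-F10 and Renca.

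Other genes of the pathway were followed as lists, on the same scale of LEN minus NT averaged across models. Of 27 interferon gamma target genes 23 rose and none fell, with a median of 0.45 against 0.00043 over all genes. The largest rises among them were those of Tgtp1, an interferon-inducible GTPase (1.01, SE 0.17, adjusted p = 6.9e-06), Nos2, the inducible nitric oxide synthase (0.98, SE 0.10, adjusted p = 1.29e-10), and Igtp (0.79, SE 0.15, adjusted p = 0.000112). Without B16-F10 the count was 13 of 27 with a median of 0.32, and without EMT6, Renca or BNL 1ME A.7R.1 it was 16, 18 or 20.

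Of 12 genes that carry or restrain the signal 8 rose and 1 fell, among them Socs3 (0.46) and Socs1 (0.41), feedback inhibitors of cytokine signaling. Of 9 other chemokines and receptors of the axis 4 rose, with the chemokines Ccl4 (0.68) and Ccl3 (0.66) and Cxcl11 (0.34), the further CXCR3 ligand. Of 12 proteases and inducers of interferon gamma 6 rose, with Il18r1 (0.47) and Il18rap (0.34), the chains of the receptor for interleukin 18, and Stat4 (0.38), which carries the signal of interleukin 12. Without B16-F10 the counts of higher genes were 5 of 12 for signal genes and 2 of 9 for other chemokines and receptors, and the latter was also 2 without BNL 1ME A.7R.1 or without Renca.

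Among cell type markers 7 of 10 for T cells rose (median 0.34), with Cd3e (0.47), Cd2 (0.45) and Cd3g (0.40), and 4 of 8 for NK cells (median 0.21), with Prf1 (0.50), which encodes perforin. Without B16-F10 these counts were 3 of 10 and 2 of 8, and without BNL 1ME A.7R.1 the NK cell count was 2. Macrophage markers moved the other way on average, with 7 of 9 lower (median -0.38), led by Mrc1 (-0.53), Csf1r (-0.45) and C1qc (-0.44). This did not hold in each model. In B16-F10 8 of 9 were called higher (median 1.65). The median was also above 0 in Hepa 1-6 (0.56), EMT6 (0.35) and BNL 1ME A.7R.1 (0.11), and below 0 in all the other models. All 9 endothelial markers fell (median -0.72), with Cdh5, the cadherin of endothelial junctions, lower in 12 of 12 models (-1.17). Of 8 dendritic cell markers 2 rose, with Ccr7 (0.49) and Flt3 (0.26), and 4 rose without RAG. All 6 skeletal muscle markers rose (median 1.01) and so did 4 of 5 epithelial markers (median 0.41), or 2 of 5 without BNL 1ME A.7R.1. Muscle markers are no part of the axis, and 5 of 6 rose without BNL 1ME A.7R.1 (median 0.67).

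**Figure D5:**
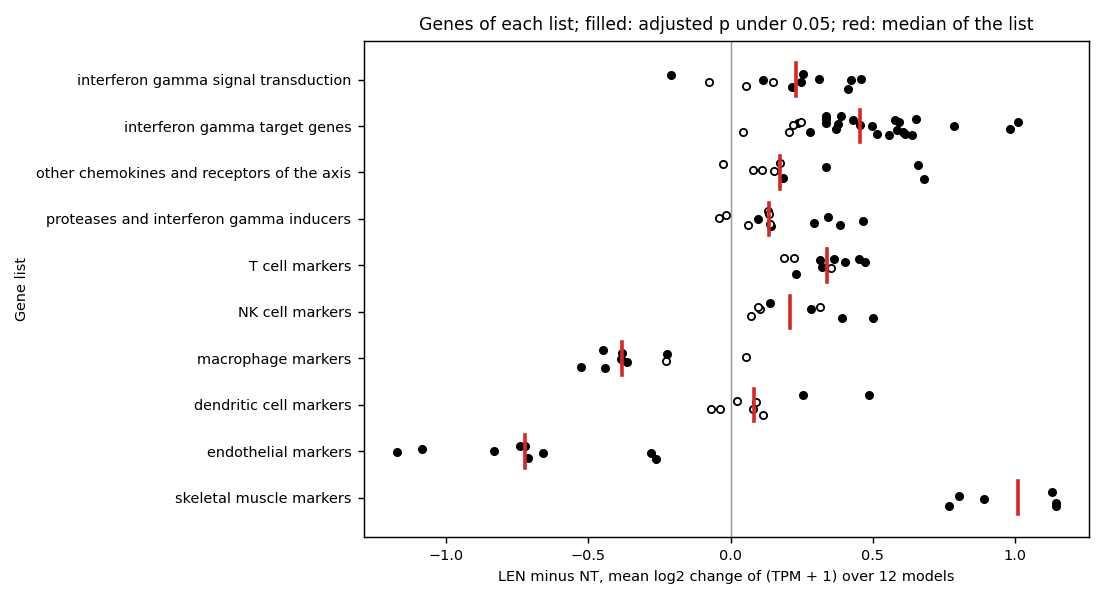
Mean log2 change of (TPM + 1) over 12 models, LEN minus NT, on the horizontal axis for the genes of 10 lists. Each point is a gene, filled points have an adjusted p under 0.05, and the red bar is the median of the list, at 0.45 for the interferon gamma target genes and -0.72 for the endothelial markers. Vertical scatter within a list has no meaning.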

How the data were processed

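RNA of 35 Base, 36 NT and 36 LEN tumors was depleted of ribosomal RNA and sequenced on NovaSeq and NextSeq instruments. Which tumor ran on which was not given in the sources used here. Per the submitters' processing notes and methods, the authors trimmed reads with Trimmomatic 0.36, mapped them to mm10 (GRCm38) with STAR 2.5.2b, estimated expression with RSEM 1.2.31 and left out samples that failed quality control. They deposited TPM for 50686 genes, with the same total in every column, so that no depth is kept. Positions are from GENCODE M21 and promoters from RefSeq.

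Values were analyzed as log2(TPM + 1) over genes with a mean of at least 0.1 TPM in the fitted tumors. The limma package 3.58.1 in R 4.3.3 (lmFit, eBayes with trend) gave the mean LEN minus NT over models (72 tumors, 24 groups), the F test of 11 contrasts between models, LEN minus NT in each model alone, NT minus Base (71 tumors) and the F test between models in Base. The F test of NT minus Base was added to the planned tests. P-values were adjusted by Benjamini-Hochberg over all genes tested, with a threshold of 0.05, and measure the spread between tumors of different mice. Correlations were computed with Python 3.11.15, numpy 2.4.6 and pandas 2.3.3, and plots with matplotlib 3.10.9. Groups were called apart where their ranges did not overlap. The code was tested on simulated data. A minimum share of recovered changes was required there for the planned tests over all models, but not for a model fitted alone. The tests were repeated with other settings, namely 0.1 as pseudocount, a TPM minimum of 1 or none, upper-quartile and protein-coding rescaling, no trend, a replicate block, and each tumor or model left out. For the list counts, leaving out models was added after seeing the data.

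All 9 members are named. From each list the 3 called genes with the largest absolute mean change under LEN could be named, and for each member the 3 genes with the highest r over groups. Members, lists and tests were chosen with earlier results of these data known. Some genes of the lists are not reported here.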

Additional observations from a re-analysis of the deposited data

Results flagged for a closer look

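The effect of LEN differed between the 12 models by the F test for 3 members. The adjusted p was 7.24e-08 for Ifngr1, with single-model changes from -0.39 in RAG to 0.79 in B16-F10. It was 1.6e-07 for Cxcl16, from -0.91 in LL/2 to 1.54 in B16-F10, and 0.00917 for Cxcl10, from -0.87 in 4T1 to 2.47 in B16-F10. The Cxcl10 call was lost without B16-F10 (adjusted p = 0.135).

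The change from Base to NT also differed between models for 3 members, with an adjusted p of 5.14e-08 for Ifngr1, 5.61e-05 for Cxcl16 and 0.00247 for Ifngr2. In the same tests 28.7% and 50.2% of all genes differed between models.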

How the results depend on the processing

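The mean effect of LEN was called for 4 members, for 1 without BNL 1ME A.7R.1 or without EMT6, 2 without Renca and 0 without B16-F10, and for 3 to 5 when single tumors were left out. Over all genes 2747 were higher, against 1609, 2511, 2531 and 2187 without these 4 models in the same order and 2580 to 3653 without single tumors. The number of members whose LEN effect differed between models was 3, with 5 without RAG, 6 without CT26.WT and 3 to 6 without single tumors. The number called between NT and Base was 3, with 0 without Renca, 1 without Hepa 1-6 and 3 to 4 without single tumors. Over all genes 2917 fell, against 2335, 2261 and 2635 to 3195 in the same fits. The number of pairs called was 15, or 11 to 15 under other settings and 11 to 16 without single tumors. All 9 members differed between models in Base under all settings run. A replicate block left 4, 3 and 3 members called in the first 3 counts, and 14 pairs in a shared fit, and changed no other count by over 1.5 times. The replicate numbers do not pair the tumors, since 0 of 20 same-numbered pairs had a correlation over 0.1.

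Changes near 0 turned sign, none of them called. For Cxcl16, LEN minus NT was 0.011 at pseudocount 0.1, and 0.028, 0.058, 0.028, 0.069, 0.048, 0.082 and 0.017 without RAG, 4T1, CT26.WT, Renca, MC38, LL/2 and KLN205. For Ifngr2 it was -0.011 and -0.000418 after upper-quartile and protein-coding rescaling, and -0.032, -0.00676, -0.00599, -0.00228, -0.00857 and -0.00432 without BNL 1ME A.7R.1, CT26.WT, EMT6, MBT2, KLN205 and Hepa 1-6. For NT minus Base, Cxcl16 was at -0.000258 (pseudocount 0.1), -0.045 and -0.055 (both rescalings), and -0.093, -0.018, -0.046, -0.012 and -0.039 without BNL 1ME A.7R.1, 4T1, EMT6, LL/2 and KLN205. Ifngr1 was at -0.0018 and -0.012 (both rescalings) and -0.019 without BNL 1ME A.7R.1. Ifngr2 was at 0.022, 0.025, 0.0047, 0.0047, 0.031 and 0.027 without CT26.WT, Renca, MC38, B16-F10, LL/2 and Hepa 1-6. Without single tumors, LEN minus NT ranged from -0.0073 to 0.040 for Ifngr2 and -0.034 to 0.022 for Cxcl16, and NT minus Base from -0.022 to 0.011 and -0.015 to 0.041.

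Rescaling moved the split of all genes. Under LEN 2747 genes were higher and 1938 lower, against 2648 and 3417 (upper quartile) and 2902 and 3031 (protein-coding). From Base to NT 1501 rose and 4651 fell after upper-quartile rescaling. The causes were not tested. With 3 tumors a group and no depth, small changes of low genes such as Ifng could not be told from the spread.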
